A study of Mus musculus with 8 samples.

Results

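Interferons are secreted proteins by which cells signal infection and inflammation. Interferon-gamma, made mainly by NK cells and T cells, binds a receptor of IFNGR1 and IFNGR2 and induces factors such as IRF1, while type I interferons bind another receptor. Among the genes that respond are immunity-related GTPases (IRG) and guanylate-binding proteins (GBP), which attack intracellular pathogens, and the genes by which cells cut proteins into peptides and present them on MHC class I and class II molecules. The expression of 45 genes of these pathways was followed in whole uteri of mice at postnatal day 10 (PD10). They are 8 IRG GTPases, 8 GBP GTPases, *Ifng* with its 2 receptor genes, 5 transcription regulators, 2 chemokines, 8 genes of MHC class I presentation, 4 of MHC class II presentation and 7 genes of the type I interferon response. The genes were picked from the comparison of cKO with control in these same libraries, by symbol and known role and with its fold changes known, so the values below describe that comparison and no test over the list is given. Of the 45 genes, 44 were among the 16658 genes tested, of 27179 in the count files. *Ifng* was under the filter on low counts.

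RNA was sequenced from 4 control mice with the genotype Ezh2 f/f and 4 *Ezh2 Amhr2*-Cre cKO mice with the genotype Ezh2 f/f; Acre, where Acre is the *Amhr2*-Cre allele. Both groups were at PD10, carried the floxed *Ezh2* allele and were kept on a C57BL/6/129SvEv background. *Ezh2* encodes the enzyme of Polycomb repressive complex 2 that methylates histone H3 at lysine 27, and *Amhr2*-Cre acts in cells of the mesenchyme beneath the uterine epithelium, so cells of other origin in a whole uterus keep the gene. Each library held 25287141 to 36685807 counts, and 3 counts, the limit that a count of 0 allows, correspond to 0.0818 to 0.119 counts per 1000000 (CPM). *Ezh2* read 49.5, 40.5, 54.7 and 35.4 CPM in control replicates 1 to 4 and 30.4, 38.02, 40.7 and 38.00 CPM in cKO replicates 1 to 4, and its log2 fold change was -0.29 with a standard error of 0.13 (quasi-likelihood test of edgeR, adjusted p = 0.247). The groups overlapped in this gene, which is counted over its whole length and in all cells of the uterus, while only part of it is floxed. The paper reports other evidence of the deletion: recombination of the allele in cKO uteri, lower *Ezh2* mRNA, and weaker EZH2 staining in stroma but not in epithelium. Markers of uterine epithelium (summed CPM 943 to 1275), stroma (2432 to 3314) and smooth muscle (5792 to 7666) were present in each of the 8 libraries.

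The libraries differed within the control group. The members were picked with their fold changes known, and all those tested had a log2 fold change under 0. A control library as the highest and a wide control spread therefore follow in part from the picking. The shares of all genes given beside the counts are not matched to it, and members that move together are not independent. Control replicate 2 was the highest of the 8 libraries in 38 of the 44 members tested (86.4%), against 16.9% of all genes tested. Control replicates 1 and 2 were the highest pair in 32 of 44 (72.7%), against 8.12% of all genes. Both lay over control replicates 3 and 4 in 39 of 44 members (88.6%, all genes 24.1%). Summed over the 45 members, expression was 1948 and 2361 CPM in control replicates 1 and 2, 1193 and 1159 CPM in control replicates 3 and 4, and 1114 to 1199 CPM in the cKO libraries. The SD of log2 CPM was larger in control than in cKO uteri for 42 of 44 members, with a median of 0.605 in control and 0.160 in cKO, where the medians over all genes were 0.122 and 0.134. Within the control group the highest library was 1.09 to 11.3 times the lowest (median 2.46), and within the cKO group 1.03 to 2.09 times (median 1.30). Values are therefore given with 4 control libraries and, as an alternative chosen after seeing the data, without control replicates 1 and 2.

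**Figure D1:**
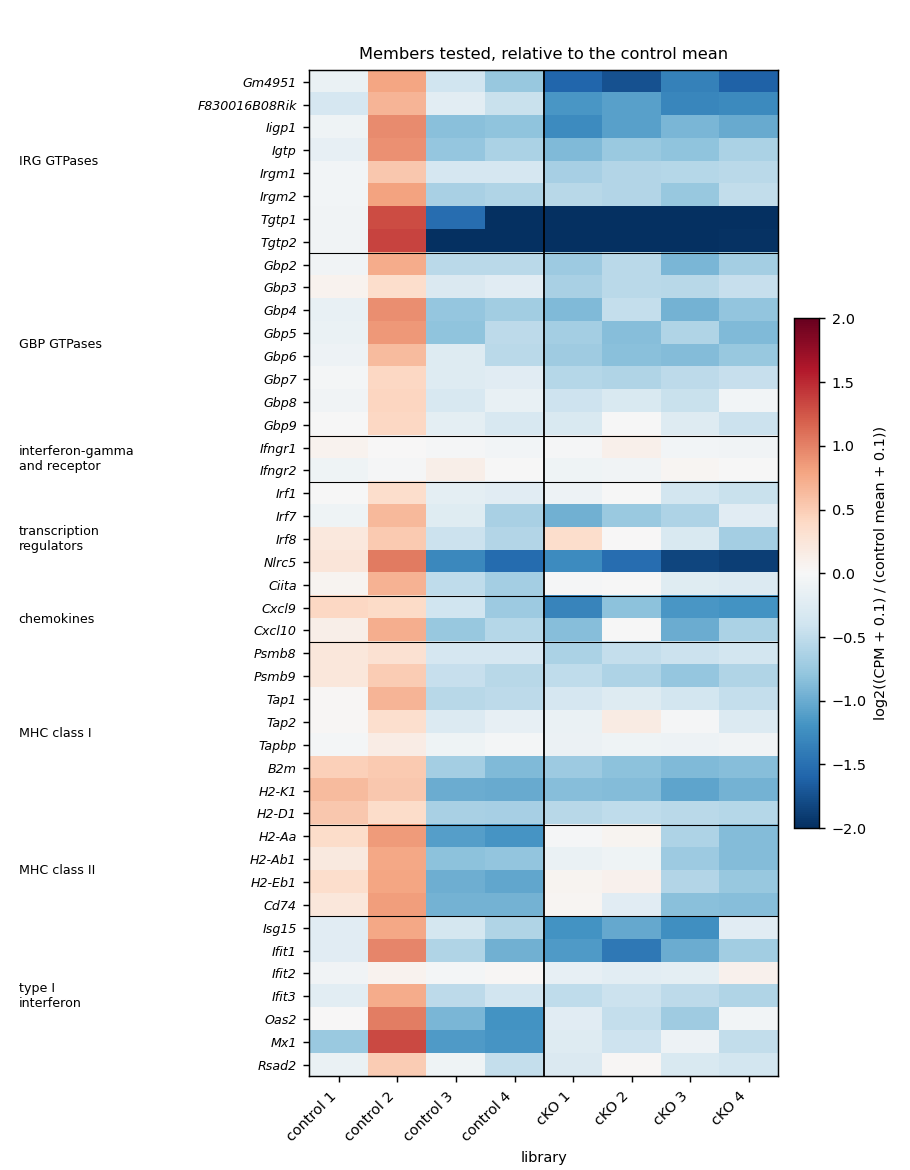
Heat map of the 44 members tested (vertical axis, grouped by role) in the 8 libraries (horizontal axis). Color gives log2 of CPM plus 0.1 over the control mean plus 0.1, from -2 (blue) to 2 (red), and values beyond are drawn at the ends of the scale. Control replicate 2 is the reddest column and control replicates 3 and 4 resemble the cKO columns in many rows, while *Gm4951* and *F830016B08Rik* are lower in each cKO library than in each control library.

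Short elements near the start of a gene mark many of these genes as interferon targets. The interferon-stimulated response element (ISRE) is bound by IRF proteins, and the gamma-activated site (GAS) is an element of genes that respond to interferon-gamma. The letters GAAANNGAA (core of the ISRE) and TTCNNNGAA (GAS) were searched on both strands from 250 bases before to 50 bases after each RefSeq gene start of GRCm38.p6. The table held 36 promoters of 31 members, and 16 of them (44.4%) held the ISRE core, against 2812 of 32851 promoters of all genes (8.56%). GAS letters were in 11 of 36 member promoters (30.6%) and in 2726 of all promoters (8.30%). The promoters of *Gm4951*, *F830016B08Rik*, *Iigp1*, *Gbp4*, *Gbp6*, *Gbp8*, *Gbp9*, *Nlrc5*, *Ciita*, *Tap2*, *H2-Ab1*, *Cd74*, *Oas2* and *Mx1* were not analysed here. Among the promoters read, the ISRE core was in 5 of 5 from 5 of the 8 IRG genes, in 4 of 5 from 4 of the 8 GBP genes, in 2 of 2 of chemokine genes and in 4 of 6 of the type I interferon group. It was in 1 of 8 promoters of MHC class I presentation, that of *B2m*, and in 0 of 2 of MHC class II. A match describes these letters only and is not a measured binding site.

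The 120 bases before the start are shown for 5 IRG genes, since the same arrangement recurs among them, and for 3 GBP genes, which include the pair called lower in cKO uteri. Capitals mark the ISRE core and GAS on either strand.
Tgtp1, chr11:48992247-48992366, minus strand: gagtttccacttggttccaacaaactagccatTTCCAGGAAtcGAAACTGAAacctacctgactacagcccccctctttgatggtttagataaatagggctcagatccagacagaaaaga
Tgtp2, chr11:49064213-49064332, minus strand: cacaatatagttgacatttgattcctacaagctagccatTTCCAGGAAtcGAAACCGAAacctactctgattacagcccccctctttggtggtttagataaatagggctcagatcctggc
Igtp, chr11:58199436-58199555, plus strand: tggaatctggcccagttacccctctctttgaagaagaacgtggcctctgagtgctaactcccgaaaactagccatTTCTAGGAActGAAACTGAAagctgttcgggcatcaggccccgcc
Irgm2, chr11:58214857-58214976, plus strand: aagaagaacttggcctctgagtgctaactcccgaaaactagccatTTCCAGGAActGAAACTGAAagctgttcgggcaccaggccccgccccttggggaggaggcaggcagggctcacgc
Irgm1, chr11:48871421-48871540, minus strand: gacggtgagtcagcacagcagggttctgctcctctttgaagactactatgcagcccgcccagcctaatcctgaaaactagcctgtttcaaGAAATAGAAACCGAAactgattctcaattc
Gbp3, chr3:142559924-142560043, plus strand: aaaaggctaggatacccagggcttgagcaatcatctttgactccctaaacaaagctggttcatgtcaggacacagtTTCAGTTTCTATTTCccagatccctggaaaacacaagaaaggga
Gbp7, chr3:142530216-142530335, plus strand: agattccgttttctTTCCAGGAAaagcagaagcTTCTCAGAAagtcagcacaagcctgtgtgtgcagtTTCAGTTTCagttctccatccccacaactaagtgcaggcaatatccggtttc
Gbp2, chr3:142620543-142620662, plus strand: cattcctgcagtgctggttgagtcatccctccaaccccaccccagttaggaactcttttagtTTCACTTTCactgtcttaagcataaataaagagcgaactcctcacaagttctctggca
In *Tgtp1*, *Tgtp2*, *Igtp* and *Irgm2* a GAS was followed by an ISRE core, with 11 bases from the first base of the one to the first base of the other. The core began at -77, -70, -34 and -64 from the gene start. *Irgm1* held overlapping ISRE cores at -30 and -24 and no GAS in the 300 bases searched. *Gbp3* held ISRE cores at -44 and -38 in the first of its 2 RefSeq promoters and none in the other, *Gbp7* held GAS letters at -106 and -87 and an ISRE core at -52, and *Gbp2* held an ISRE core at -58.

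The windows of *Ifit1* and *Isg15*, genes of the type I interferon group, are shown because the ISRE core is repeated in them without a GAS.
Ifit1, chr19:34640769-34640888, plus strand: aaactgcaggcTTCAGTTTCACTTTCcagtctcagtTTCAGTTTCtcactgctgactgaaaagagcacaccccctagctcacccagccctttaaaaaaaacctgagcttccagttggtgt
Isg15, chr4:156200819-156200938, minus strand: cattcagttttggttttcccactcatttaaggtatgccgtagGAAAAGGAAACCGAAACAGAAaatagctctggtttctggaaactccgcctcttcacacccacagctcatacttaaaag
The ISRE cores of *Ifit1* began at -109, -103 and -84 and those of *Isg15* at -78, -72 and -66.

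The comparison of genotypes addresses which genes differ in uteri after loss of *Ezh2* from the mesenchyme. With 4 control and 4 cKO libraries, 44 of the 44 members tested had a log2 fold change under 0, as did 49.9% of all genes, with a median of -0.54 against 0.00044 over all genes. With an adjusted p under 0.05 over all genes (edgeR's quasi-likelihood test), 4 members were called lower in cKO uteri (*Gm4951*, *F830016B08Rik*, *Gbp3* and *Gbp7*) and 0 higher, where 2.71% of all genes were called lower and 2.62% higher. *Gm4951* and *F830016B08Rik* were also over 2-fold lower, as were 0.636% of all genes. An unadjusted p under 0.05 was found in the lower direction for 18 members (9.86% of all genes) and in the higher direction for 0. DESeq2 called 11 members lower, adding *Irgm1*, *Tgtp1*, *Tgtp2*, *Gbp6*, *Cxcl9*, *Psmb8* and *Psmb9* to the 4 above, and 0 higher, where it called 4.37% of all genes lower and 4.88% higher. In 9 members each cKO library was under each control library, as in 6.43% of all genes. These were *Gm4951*, *F830016B08Rik*, *Iigp1*, *Irgm1*, *Gbp3*, *Gbp6*, *Gbp7*, *Cxcl9* and *Psmb8*. Because the list was made with this comparison known, nothing is read from these counts about the group.

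These values changed when the 2 high control libraries were left out. Those libraries were chosen because they were high in most members, so an upward shift of most fold changes was built into the choice. Here and in the paragraphs on single genes, the shift is a description and not a separate result. Without control replicates 1 and 2, 27 of the 44 members had a log2 fold change under 0 (49.4% of all genes), with a median of -0.064. Then 3 members were called lower, *Gm4951*, *F830016B08Rik* and *Gbp7*, and 1.45% of all genes were. The median by role moved from -1.15 to -0.31 for IRG GTPases, from -0.63 to -0.13 for GBP GTPases, from -0.50 to 0.02 for MHC class I and from -0.34 to -0.064 for the type I interferon group. For MHC class II it moved from -0.36 to 0.65. In bulk RNA, fewer cells of a type and less RNA per cell cannot be told apart, here and in the results that follow.

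**Figure D2:**
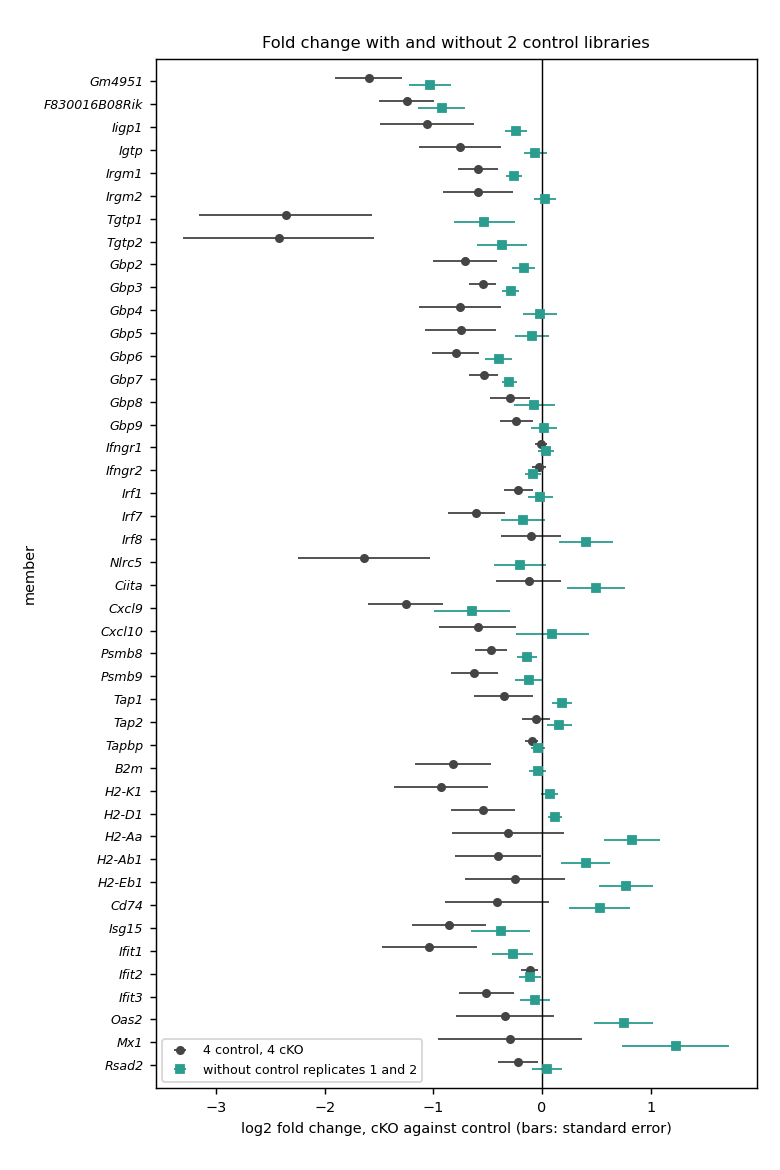
Log2 fold change of cKO against control (horizontal axis) for the 44 members tested (vertical axis), with bars for the standard error. Dark circles use 4 control and 4 cKO libraries and lie under 0 for 44 of 44 members, and green squares leave out control replicates 1 and 2 and lie under 0 for 27 of 44.

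The IRG GTPases had the lowest median log2 fold change of the 8 roles, -1.15. *Gm4951* (Entrez 240327, chromosome 18 of GRCm38, 60212004 to 60248440) and *F830016B08Rik*, which encode predicted IRG proteins of the same cluster as *Iigp1*, were the members with the smallest p-values. *Gm4951* read 6.59, 12.6, 5.46 and 4.23 CPM in control replicates 1 to 4 and 2.33, 2.07, 2.77 and 2.28 CPM in cKO replicates 1 to 4. All 4 cKO libraries lay under the lowest control library, and the means were 7.21 ± 3.70 and 2.36 ± 0.294 CPM (SD, n = 4), a log2 fold change of -1.60 (standard error 0.31). Leaving out control replicates 1 and 2 gave -1.03 (standard error 0.19). *F830016B08Rik* read 2.71, 5.57, 2.96 and 2.50 CPM in control libraries and 1.48, 1.57, 1.32 and 1.37 CPM in cKO libraries, so that here too the groups did not overlap and control replicate 2 stood far above the other 3 controls. Its log2 fold change was -1.25 (standard error 0.25), and -0.92 (standard error 0.22) without control replicates 1 and 2. It was called lower in each of the 8 fits that left out a single library, and *Gm4951* in 6 of them.

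*Iigp1* lies in the same cluster and encodes an IRG protein that accumulates on the vacuoles of parasites. Its level was 48.9, 101, 29.1 and 29.8 CPM in control replicates 1 to 4 and 21.7, 24.5, 27.6 and 25.9 CPM in cKO replicates 1 to 4. The cKO libraries lay just below control replicates 3 and 4, and the log2 fold change of -1.06 (standard error 0.43) became -0.24 without control replicates 1 and 2. Within 500 kb of the 3 genes, 9 other genes were tested, with a median log2 fold change of -0.07. Among these, *Gm4841*, a further predicted IRG gene, read 1.45, 4.45, 1.86 and 1.76 CPM in control libraries and 1.28, 1.24, 0.863 and 0.946 CPM in cKO libraries, and its log2 fold change of -1.12 was not called (adjusted p = 0.0849, edgeR). *Synpo*, which encodes an actin-associated protein, fell by 0.51 on the log2 scale (adjusted p = 0.000249, edgeR). Both neighbours were named after their values were seen.

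*Tgtp1* and *Tgtp2* had the largest fold changes of the list and the widest spread between control libraries. *Tgtp2* read 12.3, 33.1, 3.03 and 3.10 CPM in control replicates 1 to 4 and 1.94, 2.24, 2.13 and 3.19 CPM in cKO replicates 1 to 4. Control replicates 3 and 4 lay within reach of the cKO libraries, cKO replicate 4 being above both, and the log2 fold change went from -2.42 (standard error 0.88) to -0.37 (standard error 0.23) without control replicates 1 and 2. For *Tgtp1* the levels were 5.84, 15.2, 2.07 and 1.35 CPM in control libraries and 1.17, 1.41, 0.924 and 1.19 CPM in cKO libraries, with log2 fold changes of -2.36 and -0.53. These genes are near copies: 91.4% of the 50-base windows of the *Tgtp1* transcripts and 90.6% of those of *Tgtp2* also occur in another gene, mostly in each other. How reads that map to both were counted is not given, so the split of reads between them is uncertain.

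The remaining IRG members *Irgm1*, *Irgm2* and *Igtp* encode regulators of the other IRG proteins, found on membranes of the cell itself. *Irgm1* read 54.9, 83.1, 45.1 and 45.4 CPM in control libraries and 35.9, 37.9, 38.3 and 39.5 CPM in cKO libraries, with no overlap, a log2 fold change of -0.59 (standard error 0.18) and -0.26 without control replicates 1 and 2. *Igtp* read 25.8, 54.5, 16.8 and 18.8 CPM in control libraries and 15.7, 17.3, 16.5 and 18.6 CPM in cKO libraries. *Irgm2* read 25.6, 46.3, 17.02 and 17.4 CPM in control libraries and 18.1, 17.6, 15.7 and 18.8 CPM in cKO libraries. In both, control replicates 3 and 4 fell inside or beside the cKO range, and the log2 fold changes of -0.76 and -0.59 moved to -0.06 and 0.03. Next to them lies *Gm12250*, an IRG-like gene named after its values were seen, at 3.82, 12.96, 1.82 and 2.03 CPM in control libraries and 1.83, 1.54, 1.57 and 2.00 CPM in cKO libraries (log2 fold change -1.55, not called). Over the 11 other genes tested within 500 kb of *Igtp* and *Irgm2*, *Gm12250* included, the median log2 fold change was -0.08.

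**Figure D3:**
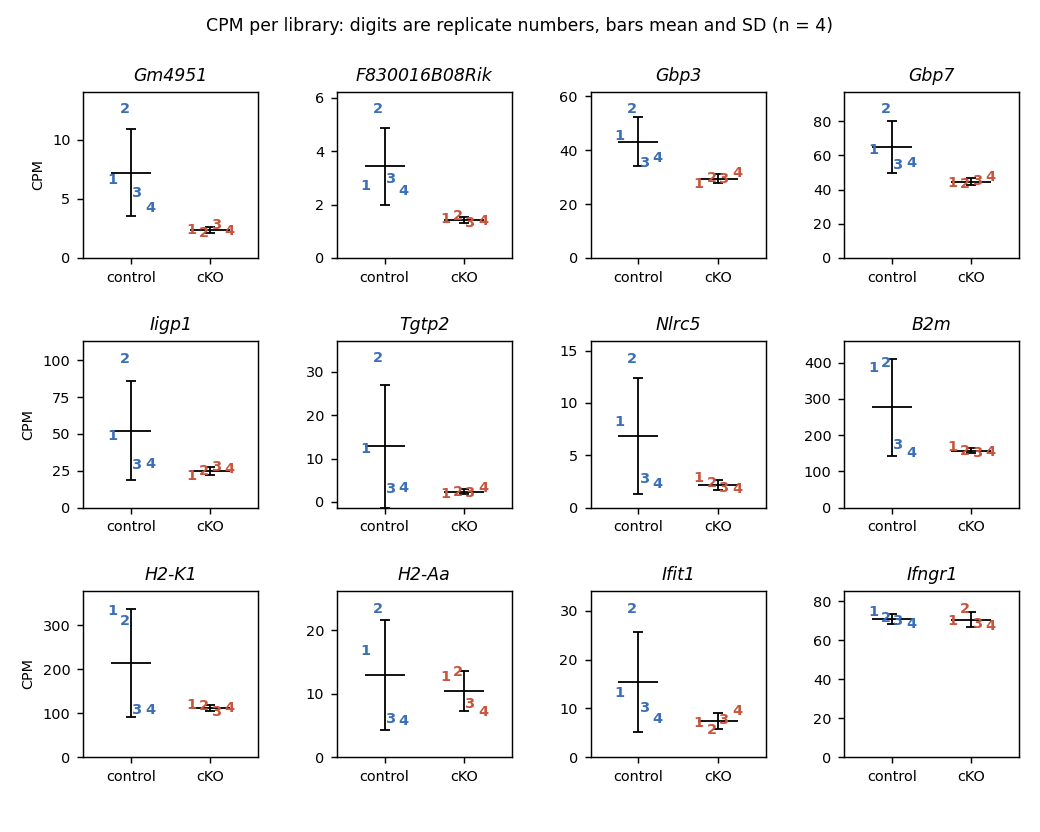
CPM of 12 genes in each library, each panel with its own vertical axis and genotype on the horizontal axis. Digits are replicate numbers in control (blue) and cKO (red) uteri, the horizontal bar is the mean and the whiskers are the SD (n = 4). In *Gm4951*, *F830016B08Rik*, *Gbp3*, *Gbp7* and *Iigp1* the digits of the groups do not overlap, in *B2m* and *H2-K1* control replicates 1 and 2 stand apart from the other 6 libraries, and *Ifngr1* spans 67.4 to 76.2 CPM over both groups.

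The GBP GTPases, which coat bacteria and parasite vacuoles and help break them open, lie in clusters on chromosomes 3 and 5. *Gbp3* (Entrez 55932, chromosome 3 of GRCm38, 142560016 to 142573213) read 45.5, 55.2, 35.2 and 36.9 CPM in control replicates 1 to 4 and 27.6, 29.7, 29.3 and 31.3 CPM in cKO replicates 1 to 4. *Gbp7* (Entrez 229900, chromosome 3 of GRCm38, 142530336 to 142550151) read 63.02, 86.9, 54.2 and 55.8 CPM in control libraries and 43.6, 42.9, 45.04 and 47.04 CPM in cKO libraries. In both genes the highest cKO library was under the lowest control library. The log2 fold change of *Gbp3* was -0.55 (standard error 0.13), and -0.29 without control replicates 1 and 2, where it was not called. That of *Gbp7* was -0.54 (standard error 0.13) and -0.30. Each was called in 4 of the 8 fits that left out a single library.

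*Gbp6* read 14.3, 23.98, 12.8 and 10.6 CPM in control libraries and 9.40, 8.60, 8.41 and 9.04 CPM in cKO libraries without overlap, at a log2 fold change of -0.79 (standard error 0.22), and -0.40 without control replicates 1 and 2. Of its 50-base windows, 90.2% also occur in the annotated gene *Gm43302*, so its count is uncertain. *Gbp2*, an abundant GBP, read 33.7, 59.1, 24.2 and 24.3 CPM in control libraries and 21.3, 24.3, 18.8 and 22.03 CPM in cKO libraries. *Gbp4* read 11.04, 23.5, 7.14 and 7.55 CPM in control libraries and 6.60, 8.84, 6.38 and 7.11 CPM in cKO libraries. *Gbp5*, which also acts in inflammasome assembly, read 8.58, 17.2, 5.35 and 6.51 CPM in control libraries and 5.83, 5.19, 6.19 and 5.04 CPM in cKO libraries. In these 3 genes control replicates 3 and 4 lay within or just above the cKO range, and the log2 fold changes of -0.71, -0.76 and -0.75 moved to -0.17, -0.02 and -0.10. *Gbp8* and *Gbp9* had log2 fold changes of -0.30 and -0.24, which moved to -0.07 and 0.02. Non-member genes within 500 kb had median log2 fold changes of -0.06 around the chromosome 3 cluster (6 genes) and -0.09 around the chromosome 5 cluster (9 genes).

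*Ifng*, the ligand, was close to the limit of detection. Its raw counts were 4, 7, 1 and 1 in control replicates 1 to 4 and 0, 0, 1 and 0 in cKO replicates 1 to 4, so control replicates 1 and 2 held 11 of the 14 reads over all libraries. The member just above the filter on low counts was *Mx1*, at 0.137 to 1.24 CPM in control libraries and 0.350, 0.301, 0.400 and 0.280 CPM in cKO libraries. With all libraries the receptor genes differed between the groups by less than the standard error. *Ifngr1* read 74.6, 71.2, 69.8 and 68.2 CPM in control libraries and 70.1, 76.2, 68.4 and 67.4 CPM in cKO libraries, a log2 fold change of -0.01 (standard error 0.06). *Ifngr2* read 50.2, 51.9, 57.2 and 52.7 CPM in control libraries and 50.02, 50.5, 54.4 and 52.9 CPM in cKO libraries, a log2 fold change of -0.03 (standard error 0.06). The highest library was cKO replicate 2 for *Ifngr1* and control replicate 3 for *Ifngr2*, and the groups overlapped in both. Leaving out control replicates 1 and 2 gave 0.03 and -0.08 (standard errors 0.07).

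Among the transcription regulators, *Nlrc5*, the activator of MHC class I genes, had the largest difference. It read 8.14, 14.2, 2.75 and 2.28 CPM in control replicates 1 to 4 and 2.80, 2.31, 1.85 and 1.79 CPM in cKO replicates 1 to 4. Control replicates 3 and 4 overlapped the cKO libraries, and the log2 fold change of -1.64 (standard error 0.61) became -0.20 (standard error 0.24) without control replicates 1 and 2. *Ciita*, the matching activator of MHC class II genes, read 1.58, 2.51, 1.03 and 0.906 CPM in control libraries and 1.48, 1.51, 1.26 and 1.23 CPM in cKO libraries. All cKO libraries lay between the lower and the higher control pair, and its log2 fold change of -0.12 turned to 0.50. *Irf1*, a factor induced by interferon-gamma, read 61.2, 78.1, 53.9 and 52.6 CPM in control libraries and 57.01, 60.98, 47.7 and 45.3 CPM in cKO libraries, a log2 fold change of -0.22 (standard error 0.13) that moved to -0.01. *Irf7*, which drives interferon genes, read 8.17, 13.7, 7.28 and 5.52 CPM in control libraries and 4.43, 5.12, 5.64 and 7.43 CPM in cKO libraries, with log2 fold changes of -0.61 and -0.17. *Irf8*, a factor of myeloid cells, went from -0.10 to 0.40.

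The chemokines *Cxcl9* and *Cxcl10* attract T cells and NK cells that bear CXCR3. *Cxcl9* read 1.39, 1.35, 0.749 and 0.577 CPM in control libraries and 0.350, 0.535, 0.400 and 0.385 CPM in cKO libraries, all near 1 CPM or lower. The groups did not overlap, although control replicate 4 and cKO replicate 2 were close, and the log2 fold change was -1.26 (standard error 0.34) and -0.64 without control replicates 1 and 2. *Cxcl10* read 1.83, 2.86, 0.963 and 1.10 CPM in control libraries and 0.893, 1.67, 0.801 and 1.05 CPM in cKO libraries. It overlapped between groups, and its log2 fold change of -0.59 turned to 0.10.

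The MHC class I genes included the most abundant members, and 3 of them split the control libraries into a high and a low pair. *B2m*, the light chain of class I molecules, read 386, 398, 173 and 149.9 CPM in control replicates 1 to 4 and 167, 157, 151 and 154 CPM in cKO replicates 1 to 4. *H2-K1*, a classical heavy chain, read 332, 311, 108 and 107 CPM in control libraries and 119, 117, 103 and 111 CPM in cKO libraries. *H2-D1*, the other classical heavy chain, read 191, 169, 83.9 and 83.2 CPM in control libraries and 89.6, 93.04, 90.7 and 88.8 CPM in cKO libraries. In all 3 genes control replicates 1 and 2 were about 2 to 3 times as high as control replicates 3 and 4, which were close to the cKO libraries. The log2 fold changes were -0.82, -0.93 and -0.54 with all libraries and -0.04, 0.07 and 0.11 without control replicates 1 and 2. Per kilobase of exon, the scale on which genes can be compared, *B2m* stood first at 322 ± 155 CPM per kb in control and 183 ± 7.97 in cKO uteri (SD, n = 4), before *H2-K1* at 73.03 ± 42.2 and 38.4 ± 2.45 CPM per kb. *H2-D1* was at 51.1 ± 21.8 and 35.1 ± 0.717 CPM per kb. It was under *H2-K1* in each of the 8 libraries, though in cKO replicate 3 only at 35.15 against 35.19 CPM per kb, and the control ranges overlapped. Of the 50-base windows of *H2-D1* 14.3% also occur in other genes, and of those of *H2-K1* 8.79%, so the order of these 2 genes is uncertain.

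Of the genes that prepare peptides for class I molecules, *Psmb9*, a subunit of the immunoproteasome, read 15.9, 19.3, 9.81 and 9.25 CPM in control libraries and 9.48, 8.77, 7.92 and 8.93 CPM in cKO libraries, and its log2 fold change of -0.63 (standard error 0.22) moved to -0.12. *Psmb8*, another of its subunits, read 43.7, 46.3, 29.5 and 29.6 CPM in control libraries and 24.04, 26.9, 27.8 and 28.8 CPM in cKO libraries without overlap, with log2 fold changes of -0.47 and -0.14. The peptide transporter genes *Tap1* and *Tap2* had log2 fold changes of -0.35 and -0.05, which became 0.18 and 0.16. *Tapbp*, which encodes tapasin, the bridge between transporter and class I molecule, was among the most even members at 156 ± 11.7 CPM in control libraries and 146 ± 2.25 CPM in cKO libraries (SD, n = 4), with log2 fold changes of -0.10 and -0.04.

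The MHC class II genes took another order. *H2-Aa*, an alpha chain, read 16.8, 23.4, 5.99 and 5.68 CPM in control replicates 1 to 4 and 12.7, 13.5, 8.41 and 7.04 CPM in cKO replicates 1 to 4. *Cd74*, the invariant chain that guides class II molecules, read 37.1, 56.4, 16.2 and 16.4 CPM in control libraries and 32.5, 26.8, 17.6 and 17.4 CPM in cKO libraries. The cKO libraries lay between the control pairs in both genes, with cKO replicates 1 and 2 over cKO replicates 3 and 4. The log2 fold changes of *H2-Aa*, *H2-Ab1*, *H2-Eb1* and *Cd74* were -0.31, -0.41, -0.25 and -0.41 with all libraries, with standard errors of 0.51, 0.39, 0.46 and 0.48. Without control replicates 1 and 2 they were 0.83, 0.40, 0.77 and 0.53, and by edgeR 0 of the 4 were called, with 2 at an unadjusted p under 0.05 in the higher direction, as were 9.98% of all genes. The values of *H2-Aa* and *Cd74* by library are given because of this turn of sign, which was seen in the data first.

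The type I interferon genes were considered apart from the interferon-gamma GTPases and MHC genes. *Isg15*, a ubiquitin-like modifier, read 6.97, 14.00, 6.39 and 5.33 CPM in control replicates 1 to 4 and 3.50, 3.98, 3.45 and 7.01 CPM in cKO replicates 1 to 4. *Ifit1*, which binds viral RNA, read 13.1, 30.5, 10.1 and 7.88 CPM in control libraries and 6.95, 5.62, 7.70 and 9.46 CPM in cKO libraries. *Ifit3*, its partner, read 7.70, 15.1, 6.21 and 6.84 CPM in control libraries and 6.25, 6.66, 6.22 and 5.85 CPM in cKO libraries. In these 3 genes control replicate 2 alone was about 2 times as high as the next control library, the groups overlapped, and the log2 fold changes of -0.86, -1.04 and -0.51 moved to -0.38, -0.27 and -0.06. Of the windows of *Ifit3*, 51.2% also occur in *Ifit3b*. *Ifit2*, *Rsad2*, *Oas2* and *Mx1* had log2 fold changes of -0.11, -0.22, -0.34 and -0.29. Without control replicates 1 and 2 these were -0.11, 0.05, 0.75 and 1.23. *Mx1*, an antiviral GTPase, was highest in control replicate 2, at 1.24 CPM, and its cKO libraries of 0.350, 0.301, 0.400 and 0.280 CPM were all above the other 3 controls. The 28 interferon-gamma GTPase and MHC members had a median of -0.59 and the 7 type I members -0.34, and that difference was not tested.

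A further list of 97 genes of the same pathways, which holds no member, was read in the same fit. Of these, 85 were tested, 73 had a log2 fold change under 0 and 12 over 0, with a median of -0.15, and 3 fell and 0 rose at an adjusted p under 0.05, beside 2.71% and 2.62% of all genes. At an unadjusted p under 0.05 there were 25 in the lower and 1 in the higher direction, beside 9.86% and 11.4% of all genes. DESeq2 called 10 lower and 0 higher, beside 4.37% and 4.88% of all genes. *Gvin1*, a very large GTPase induced by interferon, fell by 1.82 on the log2 scale (adjusted p = 0.0227, edgeR), from 0.915, 0.851, 0.499 and 0.357 CPM in control to 0.194, 0.134, 0.154 and 0.245 CPM in cKO libraries. *Tapbpl*, an editor of class I peptides, fell by 0.36 (adjusted p = 0.0371, edgeR) from 25.3, 30.9, 26.4 and 23.4 to 21.2, 19.98, 19.1 and 22.1 CPM. *Ifitm1*, a membrane protein that blocks virus entry, fell by 0.39 (adjusted p = 0.0182, edgeR) from 489.9, 573, 531 and 445 to 394, 355, 376 and 433 CPM. Without control replicates 1 and 2, 0 of the further list were called and 13 had an unadjusted p under 0.05 (edgeR), as did 17.6% of all genes.

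By class, 15 interferon ligand, receptor and JAK-STAT genes were tested with a median log2 fold change of -0.04. *Socs3*, a feedback inhibitor, had the highest of the class at 0.24. *Ifnb1*, *Ifnl2* and *Ifnl3*, which encode interferons, had 0 counts in each of the 8 libraries, which allows a level of up to 0.119 CPM. Among 11 other interferon-gamma targets (median -0.37), *Gvin1* was lowest and *Icam1*, an adhesion molecule, highest at 0.18. Among 14 other class I genes (median -0.18), the non-classical heavy chain gene *H2-Q6* read 22.5, 13.3, 1.43 and 1.89 CPM in control libraries and 1.71, 1.64, 1.08 and 1.23 CPM in cKO libraries. Its log2 fold change of -2.79 was not called (adjusted p = 0.172, edgeR), and control replicates 3 and 4 were again with the cKO libraries. *H2-M3* was the highest of this class at 0.27. In 11 other class II genes (median -0.05), *Ctss*, a protease that processes the invariant chain, had -0.72 and *H2-DMb2* 0.81. In 34 other type I targets (median -0.22), *Zbp1*, a sensor of nucleic acids, had -1.75 and *Oas1b* 0.09.

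Markers of immune cells were read beside these values. Markers of NK cells, a source of interferon-gamma, summed to 22.1, 21.9, 16.6 and 13.6 CPM in control replicates 1 to 4 and to 6.37, 5.96, 3.73 and 4.59 CPM in cKO replicates 1 to 4. Of 9 NK markers 8 were tested, 7 were called lower (2.71% of all genes) and 0 were at 0 in every library. T cell markers summed to 8.86, 9.55, 4.39 and 3.90 CPM in control and 5.55, 3.88, 5.11 and 3.92 CPM in cKO uteri, with 5 of 8 tested, 0 called by edgeR (2 at an unadjusted p under 0.05, lower, as were 9.86% of all genes), and *Cd8b1* at 0 in cKO replicate 4. Pan-leukocyte markers were also highest in control replicates 1 and 2, at 68.7 and 77.6 CPM, against 42.8 to 54.6 CPM in the other 6 libraries. Of these 4 markers edgeR called 0, with 2 at an unadjusted p under 0.05, lower, as were 9.86% of all genes. Macrophage markers ranged from 133 to 210 CPM in control (highest in control replicate 2) and from 137 to 183 CPM in cKO uteri. B cell markers ranged from 3.82 to 5.18 CPM in control and 4.62 to 6.56 CPM in cKO uteri, and dendritic cell markers from 11.9 to 15.6 and from 13.7 to 16.2 CPM. Neutrophil markers ranged from 3.90 to 10.1 CPM in control (highest in control replicate 3) and from 6.59 to 10.6 CPM in cKO uteri. Thus the summed NK, T cell and pan-leukocyte markers were each highest in control replicates 1 and 2, the libraries in which most members were high. The neutrophil sum was not. The NK markers split less clearly than their sum. Their median log2 ratio to the control mean was 0.29, 0.11, 0.10 and -0.57 in control replicates 1 to 4, so control replicate 3 was close to control replicate 2. The NK sum was also lower in each cKO library than in each control library. Adipocyte markers summed to 1.07 to 3.17 CPM in control and to 92.1, 217, 95.7 and 2.00 CPM in cKO replicates 1 to 4. With a score of these markers as a covariate, 0 members were called by edgeR (8 at an unadjusted p under 0.05, as 9.38% of all genes) and the median log2 fold change was -0.70. Calls over all genes fell in the same fit from 889 (5.34%) to 123 (0.738%). The score was low in every control library and high in cKO replicates 1 to 3, so it largely follows genotype. In this fit score and genotype can hardly be told apart, and fewer calls do not show what adipocytes account for. The part of these cells in the members' differences was not tested.

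**Figure D4:**
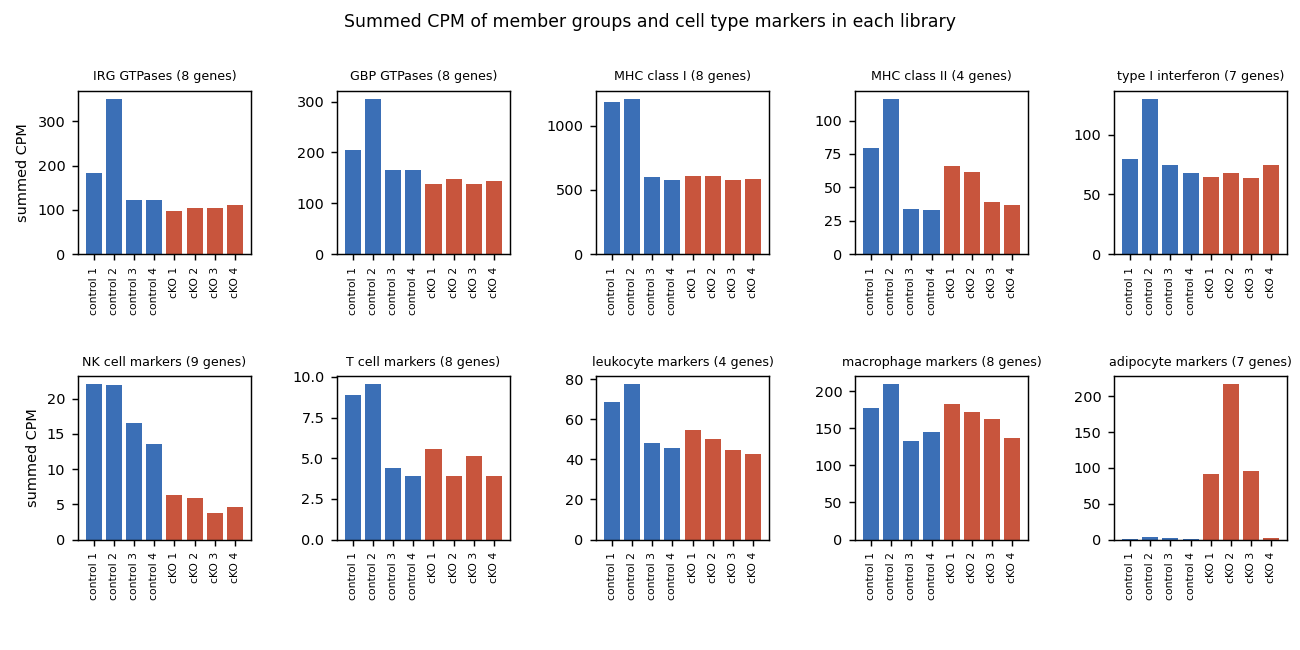
Summed CPM (vertical axes, from 0, each with its own scale) of 5 groups of members and 5 lists of cell type markers in each of the 8 libraries (horizontal axis, control in blue, cKO in red). MHC class I sums of control replicates 1 and 2 are about 2 times those of the other 6 libraries, NK cell markers are lower in all 4 cKO libraries, and adipocyte markers are high in cKO replicates 1 to 3.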

How the data were processed

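Whole uteri at PD10 were sequenced in 4 controls and 4 *Ezh2 Amhr2*-Cre cKO mice. The authors trimmed reads with Trimmomatic, checked them with FastQC, aligned them to GRCm38 with HISAT2 from TruSeq stranded mRNA libraries, and deposited raw counts per Entrez gene made with featureCounts, without normalization. Tool versions, annotation, strand setting and how reads with several matching genes were handled are not given in the sources used here, so near-identical, overlapping and antisense genes are uncertain. A deposited table also holds the authors' edgeR fold changes and p-values, and only its gene symbols were used.

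From the counts, CPM scaled by TMM was computed, genes were kept if CPM exceeded 0.2 in 4 or more libraries, and cKO was tested against control by the quasi-likelihood method of edgeR (glmQLFit with robust = TRUE, glmQLFTest) in R 4.3.3 (edgeR 4.0.16, limma 3.58.1, DESeq2 1.42.0), with a prior count of 0.125 and Benjamini-Hochberg adjustment over all 16658 genes. Standard errors of fold changes are the log2 size over the square root of the F value. The test was also run on simulated counts, with the same spread in both groups. That run cannot speak to members whose spread is larger in control than in cKO uteri, and its outcome is not given here. The members and lists were chosen with earlier results of these data known. Values in every library are given for members called, members with a log2 fold change of at least 0.5 in size and a mean of at least 1 CPM, the 3 most abundant members, and *Ifng*, its receptors, *Irf1*, *Nlrc5* and *Ciita*, and others by range or fold change. Of the further list, called genes and the extremes of each class are named, except 1 gene that is not reported here. Symbols were known for 25440 of 27179 genes. Promoters came from a RefSeq table of GRCm38.p6, lengths and shared 50-base windows from GENCODE transcripts of GRCm38. Totals of 25287141 to 36685807 counts set a limit of 0.0818 to 0.119 CPM for a count of 0, for counting error only. Deviations of same-numbered libraries from their group means correlated at 0.024, 0.11, -0.0035 and 0.19, so the numbers were not taken as pairs. The labels give no batch. Alternatives were other normalizations, filters and tools, a replicate block, an adipocyte score, cKO replicate 4 alone and each library left out. The fit without control replicates 1 and 2 was added after seeing the data. It leaves out libraries chosen for being high in the members, so its upward shift follows from that choice.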

Additional observations from a re-analysis of the deposited data

Results flagged for a closer look

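In 8 of 90 groups of 4 libraries, the value of a single library lay far from the other 3 by Dixon's test at the 95% level, where chance gives about 1 in 20. In 4 of these the library was control replicate 2, at 5.57 CPM for *F830016B08Rik* (other controls 2.50 to 2.96), 174 CPM for *Tapbp* (148 to 152), 15.1 CPM for *Ifit3* (6.21 to 7.70) and 1.24 CPM for *Mx1* (0.137 to 0.221). In cKO replicate 4, *Isg15* was at 7.01 CPM (other cKO libraries 3.45 to 3.98) and *Ifit2* at 32.1 CPM (26.2 to 26.95). *Rsad2* was at 22.96 CPM in cKO replicate 2 (17.5 to 18.3). *Ifng* was at 0.0308 CPM in cKO replicate 3, which is a single read, and at 0 in the other cKO libraries.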

How the results depend on the processing

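With 889 genes called in either direction, 4 members and 3 genes of the further list called lower and a median member log2 fold change of -0.54, the size of the calls moved with the tool and the libraries. DESeq2 called 1510 genes, 11 members and 10 further genes. With limma-voom the median was -0.47. Without robust estimation 5 further genes were called. A replicate block called 1240 genes, 6 members, adding *Gbp6* and *Cxcl9*, and 6 further genes. The numbers do not pair the libraries, and 1 of 4 control libraries correlated best with its own number. An adipocyte score as a covariate left 123 genes, 0 members and 0 further genes called, with a median of -0.70, and cKO replicate 4 alone against the controls left 35, 0 and 0. That fit takes its spread from the controls and assumes that the lone library varies like them, so fewer calls follow in part from its single cKO library. Leaving out each library in turn gave 393 (without control replicate 1) to 1773 genes (without cKO replicate 4), 1 (without cKO replicate 1 or 2) to 8 members (without control replicate 4) and 0 (without cKO replicate 1 or 3) to 9 further genes (without cKO replicate 4). The median then went from -0.66 (without control replicate 3) to -0.25 (without control replicate 2). Without control replicates 1 and 2, 501 genes and 0 further genes were called, 27 members had a log2 fold change under 0 and the median was -0.064. The cause of the other shifts was not tested.

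Over the single members, 758 of 833 alternative values kept direction and side of the threshold, 18 gained and 20 lost the call, and 37 changed sign, none of them in *Gm4951*, *F830016B08Rik*, *Gbp3* or *Gbp7*. Signs changed for *Ifngr1* with upper quartile scaling (0.0085), *Ciita* (0.0086) and *Mx1* (0.32) with limma-voom, *Ifit2* with the adipocyte score (0.052) and with cKO replicate 4 alone (0.098), and *Ifngr2* with cKO replicate 4 alone (0.0044). Over the fits that left out a single library the log2 fold change of *Ifngr1* went from -0.043 to 0.017, of *Ifngr2* from -0.054 to 0.010, of *Irf8* from -0.29 to 0.12, of *Ciita* from -0.32 to 0.22 and of *Tap2* from -0.13 to 0.077. That of *H2-Aa* went from -0.57 to 0.13, of *H2-Eb1* from -0.48 to 0.15, of *Cd74* from -0.63 to 0.020, of *Oas2* from -0.61 to 0.28 and of *Mx1* from -0.62 to 0.99. Without control replicates 1 and 2, 17 members were over 0: *Irgm2* 0.026, *Gbp9* 0.018, *Ifngr1* 0.032, *Irf8* 0.40, *Ciita* 0.50, *Cxcl10* 0.095, *Tap1* 0.18, *Tap2* 0.16, *H2-K1* 0.069, *H2-D1* 0.11, *H2-Aa* 0.83, *H2-Ab1* 0.40, *H2-Eb1* 0.77, *Cd74* 0.53, *Oas2* 0.75, *Mx1* 1.23 and *Rsad2* 0.047. Depth limits *Ifng*, with at most 7 counts in a library.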
